A study of Sus scrofa and Rattus norvegicus with 8 samples.

Results

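Nuclear receptor genes were profiled in backfat of the pig. The 39 genes of the superfamily examined here were chosen by their gene symbols, and all 39 had a value among the 25880 Ensembl gene IDs of the pig table. Of these IDs, 14844 carried a name and lay in the nuclear genome, and they served as the background. The tissue was the upper layer of backfat, a subcutaneous white fat depot, taken from female Bama pigs aged 2 years. The libraries form 1 group of 6 libraries, numbered as replicates 1 to 6, with no treatment and no engineered allele, so there was no comparison between conditions. Ribosomal RNA had been depleted before sequencing. A pair of rat libraries of the same series was not used, because the gene IDs of the rat table could not be named here.

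Nuclear receptors are transcription factors that bind DNA through 2 zinc fingers and, in many cases, switch their target genes on or off when a small fat-soluble ligand enters a pocket of the protein. Steroid hormone receptors act mostly as homodimers and are released from chaperones by hormone, whereas the receptors for thyroid hormone, retinoic acid, vitamin D, fatty acids, oxysterols and bile acids mostly bind DNA as heterodimers with a retinoid X receptor (RXR). Orphan receptors have no established hormone and are set largely by their own amount and by cofactors, and in fat the superfamily is known for its part in adipocyte formation, lipid storage and fuel use.

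Expression was given as TPM, in which each library has the same total and transcript length is corrected for, so levels of different genes can be compared. The named nuclear genes held 25.0%, 24.1%, 26.2% and 26.3% of the TPM in replicates 1, 2, 3 and 6, but only 3.34% and 4.73% in replicates 4 and 5. Replicates 4 and 5 therefore stood apart from the other 4 libraries before any receptor was examined. Levels are given as rescaled TPM, which set the named nuclear genes of each library to a total of 1000000, and as deposited TPM where stated. All 10 adipocyte markers were above 0.1 TPM as deposited in every library, led by FABP4 at 18679 ± 7299 and ADIPOQ at 2992 ± 520 rescaled TPM (SD, n = 6). In a bulk tissue, fewer cells of a type and less RNA per cell cannot be told apart.

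The letters that set where a receptor binds lie in the P box, a stretch of the first zinc finger that touches the bases of the response element. These letters were found in the reference genome for 36 of the 39 members. The other 3 were RARB, in whose RefSeq coding sequence the zinc finger letters were not matched, RARG, annotated as a long non-coding RNA, and NR4A1, annotated as a pseudogene by RefSeq. The 18 bases of the P box encoded 7 distinct peptides in 33 spellings. The strands below are printed 5′ to 3′ in the direction of the transcript, with the P box in capitals and 6 bases on each side in lower case, for 8 members of 6 of the 7 peptide groups, chosen where the letters lay in a single exon.
RXRA: tacagcTGCGAGGGCTGCAAGGGCttcttc
NR4A3: cgcaccTGCGAGGGCTGCAAGGGCttcttc
NR1H3: ctgagcTGCGAGGGCTGCAAGGGAttcttc
NR2F2: ttcacgTGCGAAGGCTGCAAGAGCttcttc
PGR: cttaccTGTGGGAGCTGTAAGGTCttcttt
ESR1: tggtctTGCGAGGGCTGTAAGGCCttcttc
ESRRA: gcatccTGTGAGGCCTGCAAAGCCttcttc
HNF4A: tcgagcTGTGACGGCTGCAAGGGCttcttt

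On the Sscrofa11.1 assembly, the capitals of RXRA lie at chr1:273776874-273776891 on the plus strand in exon 4, and those of NR4A3 at chr1:241577089-241577106 on the plus strand in exon 2. Those of NR1H3 lie at chr2:15323995-15324012 on the minus strand in exon 4, and those of NR2F2 at chr7:83083954-83083971 on the minus strand in exon 1. Those of PGR lie at chr9:32125188-32125205 on the minus strand in exon 2, those of ESR1 at chr1:14456975-14456992 on the minus strand in exon 3, those of ESRRA at chr2:7810905-7810922 on the minus strand in exon 1, and those of HNF4A at chr17:46825051-46825068 on the plus strand in exon 2. All are coding exons, numbered from the 5′ end of the RefSeq transcript that was read. RXRA, the common partner, and NR4A3, an orphan induced by stimuli, share the same 18 capitals. The peptide of RXRA was also that of 20 other members (group of 21, in 18 spellings), which included the thyroid hormone receptors, RARA, the PPARs, the liver X receptors and RORA. That group held 65.0% of the summed mean rescaled TPM of the 39 genes. The corticosteroid and progesterone receptors (3 members, NR3C1, NR3C2 and PGR) held 13.2%, the COUP transcription factors with NR2F6 (3 members) 10.7% and the estrogen-related receptors (3 members) 1.18%. The estrogen receptors (2 members) held 0.892%, the NR5A receptors (2 members) 0.354% and the HNF4 receptors (2 members) 0.125%.

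Of the 39 receptors, 25 (64.1%) were above 0.1 TPM as deposited in all 6 libraries, against 67.2% of the 14844 named nuclear genes. Another 11 passed in some libraries. The remaining 3, ESRRB, NR5A1 and ESR2, passed in none, and ESR2, the estrogen receptor beta gene, was listed at 0 in all 6. At over 1 TPM as deposited, 8 receptors (20.5%) passed in every library, against 30.9% of the background. Without replicates 4 and 5, 31 receptors (79.5%) were above 0.1 TPM in each of the 4 libraries left, against 83.1% of the background. The median of the mean rescaled TPM was 14.7 over the receptors and 16.7 over the named nuclear genes, and the same median was 3.37 for the receptors in deposited TPM. The share of receptors detected was thus close to that of the background at the lower threshold and below it at the higher one.

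The summed level was concentrated in a few genes. The 5 receptors of highest mean, RXRA, NR3C1, THRB, NR4A1 and NR2F2, held 49.97% of the summed mean of 1239 rescaled TPM, and the first 10 held 74.0%. The sum over the 39 receptors was 1464, 1610, 1279 and 1463 rescaled TPM in replicates 1, 2, 3 and 6, against 862 and 754 in replicates 4 and 5. The order of neighbouring genes was mostly not resolved by 6 pigs. Of the 38 neighbouring pairs in the order of mean level, 6 had the same gene higher in every library, and in 6 the gap between the means was larger than the larger SD of the pair. The plot of levels by ligand class shows the 3 best expressed receptors, RXRA, NR3C1 and THRB, in 3 different classes.

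**Figure D1:**
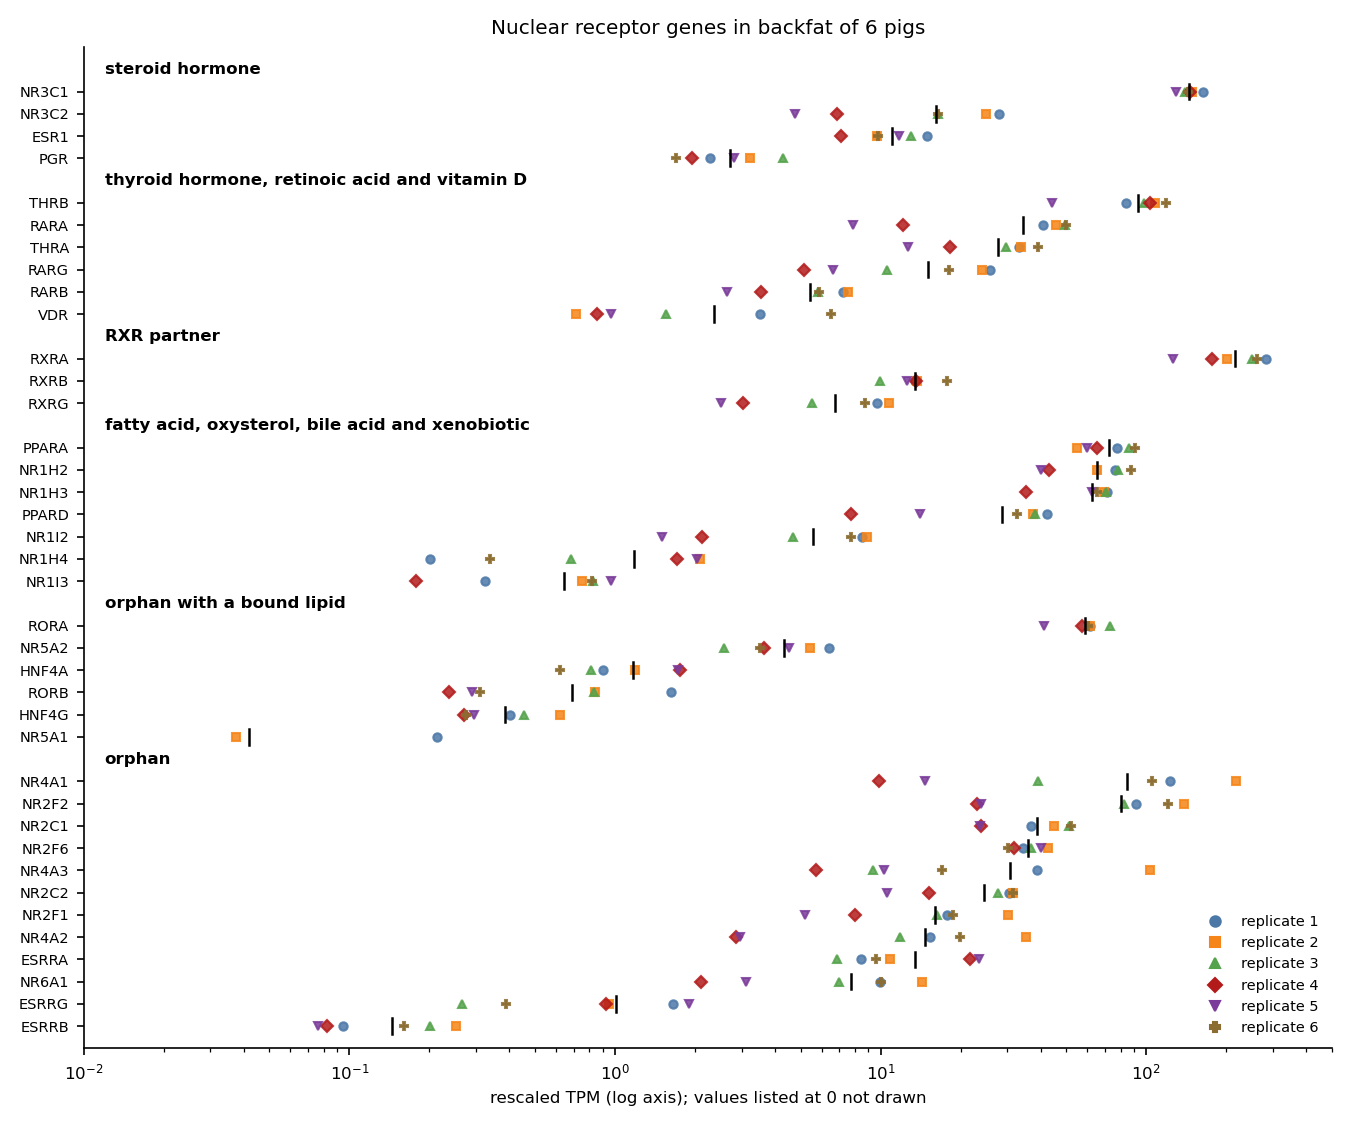
Level of each receptor in rescaled TPM (log axis) by ligand class, with 1 symbol per library and a vertical line at the mean of 6. ESR2, listed at 0, and other values of 0 are not drawn. Replicates 4 and 5 are the 2 lowest symbols for 21 of the 39 genes.

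Among the steroid hormone receptors, transcript was concentrated in NR3C1, the glucocorticoid receptor. NR3C1 was at 164, 149, 139, 145, 129 and 143 rescaled TPM in replicates 1 to 6, with a mean of 145 ± 11.4 (SD, n = 6), and at 27.0 TPM as deposited. Its coefficient of variation (CV, SD divided by mean) of 0.0784 was the lowest of the 33 receptors with a mean of at least 1 rescaled TPM, but it was 0.197, above that of 4 other receptors, after median-centring. NR3C2, the mineralocorticoid receptor, was at 27.8, 24.9, 16.4, 6.87, 4.76 and 16.4 rescaled TPM. It was lowest in replicates 4 and 5, where NR3C1 lay within or just below the range of the others. NR3C1 made up 90.4% ± 4.69 (SD, n = 6) of the summed level of this pair, between 85.5% and 96.5%, and exceeded NR3C2 by 3.31 ± 0.85 on the log2(rescaled TPM + 1) scale (SD, n = 6), which is the log2 scale of the other pairs below. ESR1, the estrogen receptor alpha gene, was at 11.05 ± 2.79 rescaled TPM and PGR, the progesterone receptor gene, at 2.71 ± 0.953 (SD, n = 6). The median over the 5 receptors of the class was 11.05 rescaled TPM, and the class held 14.1% of the summed level, most of it in NR3C1.

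Genes that supply or chaperone steroid ligands were also read. For this and the later gene lists, 67.2% of named nuclear genes were above 0.1 TPM as deposited in all 6 libraries. Of 13 found, 11 were above 0.1 TPM as deposited in all 6 libraries, led by the chaperone genes HSP90AA1 at 1206 ± 490 and HSP90AB1 at 844 ± 130 rescaled TPM (SD, n = 6). The dehydrogenase genes HSD17B4 and HSD17B12 followed at 535 ± 193 and 501 ± 275 rescaled TPM. HSD11B1, whose enzyme regenerates active glucocorticoid and which was named after its values were seen, was at 57.5 to 132 rescaled TPM, while HSD11B2, whose enzyme inactivates it, was at 0.0647 to 1.21. The ranges of these 2 genes did not overlap. All 7 of the glucocorticoid target genes found were above 0.1 TPM in every library, with DUSP1 at 530 ± 191, FKBP5 at 416 ± 177, KLF9 at 277 ± 110 and SGK1 at 124 ± 35.2 rescaled TPM (SD, n = 6). FKBP5, which encodes a chaperone that lowers receptor activity, ranged from 205 in replicate 5 to 694 in replicate 1, a wider spread than that of NR3C1 itself.

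Thyroid hormone receptor beta led the class of thyroid hormone, retinoic acid and vitamin D receptors. THRB was at 84.1, 108, 97.9, 104, 44.2 and 119 rescaled TPM, with a mean of 92.8 ± 26.4 (SD, n = 6), and at 18.3 TPM as deposited. It was lowest in replicate 5 and within the range of the other libraries in replicate 4. THRA was at 33.1, 33.8, 29.5, 18.2, 12.7 and 39.2 rescaled TPM, so both replicates 4 and 5 lay below the other 4. THRB exceeded THRA in each library, by 1.74 ± 0.38 on the log2 scale (SD, n = 6), and made up 77.1% ± 4.39 of their sum. Of 7 thyroid hormone supply genes, 3 were above 0.1 TPM in all 6 libraries. CRYM, which encodes a cytosolic binder of thyroid hormone, was at 115 ± 15.8, the transporter gene SLC16A10 at 14.8 ± 7.35, and DIO2, the activating deiodinase gene, at 1.53 ± 0.894 rescaled TPM (SD, n = 6). Of 6 thyroid hormone target genes, 4 were above 0.1 TPM in every library. THRSP was the highest at 941 rescaled TPM on average, but it ranged from 170 in replicate 6 to 3089 in replicate 5, and its SD of 1078 exceeded the mean. ME1, KLF9 and ATP2A2 followed at 387 ± 149, 277 ± 110 and 63.0 ± 13.4 rescaled TPM.

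The retinoic acid receptors were ordered RARA, RARG and RARB in every library. RARA was at 40.8, 45.9, 49.3, 12.1, 7.85 and 49.9 rescaled TPM, RARG at 25.7, 24.1, 10.5, 5.15, 6.65 and 18.05, and RARB at 7.24, 7.54, 5.82, 3.54, 2.64 and 5.86. All 3 were lowest in replicates 4 and 5, where RARA was 4.65 times lower on average than in the other 4. RARA made up 60.2% ± 10.1 of the 3 genes' sum (SD, n = 6), RARG 28.3% ± 8.22 and RARB 11.5% ± 3.77. Of 16 retinoid supply genes, 11 were above 0.1 TPM in all 6 libraries, close to the 67.2% of named nuclear genes. ALDH1A1, which encodes an enzyme that makes retinoic acid, led at 285 ± 170 rescaled TPM. DHRS3, a retinal reductase gene, was at 74.0 ± 24.7, RBP7, a retinol binding protein gene, at 70.7 ± 98.3, and RBP4, the gene of the plasma retinol carrier, at 59.0 ± 11.8 rescaled TPM (SD, n = 6). RBP7 stood at 270 in replicate 2 and between 13.2 and 42.0 in the other 5.

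VDR, the vitamin D receptor gene, was low and uneven, at 3.52, 0.712, 1.56, 0.857, 0.963 and 6.53 rescaled TPM. Its mean of 2.36 fell to 1.52 without replicate 6, the highest library. Of 5 vitamin D supply genes, 3 were above 0.1 TPM in all libraries. GC, which encodes the plasma vitamin D carrier made by liver, was at 19.9 ± 15.0, CYP2R1, a 25-hydroxylase gene, at 17.9 ± 1.64, CYP27B1, the activating hydroxylase gene, at 3.77 ± 2.08 and CYP24A1, the gene of the inactivating enzyme, at 1.42 ± 0.701 rescaled TPM (SD, n = 6). The median of the class was 21.4 rescaled TPM, and it held 14.3% of the summed level.

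The RXR transcripts came almost entirely from RXRA, the receptor of highest mean in the superfamily. RXRA was at 283, 202, 249, 177, 126 and 262 rescaled TPM, with a mean of 216 ± 59.1 (SD, n = 6), and at 44.2 TPM as deposited. It ranked 719 among the named nuclear genes. Both replicates 4 and 5 lay below the other 4, 1.64 times lower on average. After median-centring they overlapped, at 236 and 174 against 173 to 246. RXRB was at 9.92 to 17.7 and RXRG at 2.52 to 10.8 rescaled TPM. RXRA made up 91.2% ± 1.90 of the 3 genes' sum (SD, n = 6), between 89.2% and 94.2%, and it exceeded RXRB by 3.87 ± 0.47 and RXRG by 4.91 ± 0.49 on the log2 scale (SD, n = 6). With RXRA included, the 3 genes held 19.1% of the summed level, although the median of the class was only 13.5 rescaled TPM.

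The class of receptors for fatty acids, oxysterols, bile acids and xenobiotics had the highest median, 28.7 rescaled TPM, and held 19.1% of the summed level. PPARA, the gene of a fatty acid sensor that drives fat oxidation, was at 77.3, 54.8, 86.4, 65.5, 60.0 and 90.6 rescaled TPM, with a mean of 72.4 ± 14.6 (SD, n = 6). PPARD, of a related fatty acid sensor, was at 42.2, 37.4, 38.2, 7.75, 14.0 and 32.6. PPARA was higher in every library, by 1.49 ± 0.87 on the log2 scale (SD, n = 6), and the difference was 1.00 ± 0.39 (SD, n = 4) without replicates 4 and 5. Of 14 target genes of these 2 receptors, 13 were above 0.1 TPM in all 6 libraries. CAT, the catalase gene, was at 2060 ± 324, PDK4, which spares glucose, at 1100 ± 449 and ACADM, of mitochondrial beta oxidation, at 322 ± 109 rescaled TPM (SD, n = 6). Of these, ACADM was higher in replicates 4 and 5 than in the other 4, and CAT and PDK4 overlapped.

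The liver X receptors, the oxysterol sensors of cholesterol export and lipid synthesis, were not separated by their spread. NR1H2 was at 75.9, 65.3, 78.1, 43.2, 40.2 and 87.9 rescaled TPM and NR1H3 at 71.3, 69.2, 70.8, 35.3, 62.6 and 65.0. NR1H3 stood apart in replicate 4, while NR1H2 was low in both replicates 4 and 5. After median-centring NR1H2 overlapped the other libraries there, and NR1H3 in replicate 4 was at 47.2 against 55.8 to 86.6. Their mean log2 difference was 0.04 ± 0.37 (SD, n = 6), with NR1H2 higher in 4 of 6 libraries, between -0.62 and 0.43. All 7 target genes found were above 0.1 TPM in every library, with SCD, a fatty acid desaturase gene, at 7440 ± 6496, APOE, an apolipoprotein gene, at 4010 ± 960, MYLIP, which lowers the LDL receptor, at 164 ± 59.6 and ABCA1, a cholesterol exporter gene, at 122 ± 43.7 rescaled TPM (SD, n = 6). SCD ranged from 900 in replicate 6 to 18716 in replicate 5, and the receptors showed no such range. Of 5 genes that make oxysterols and bile acids, 3 were above 0.1 TPM in all libraries, and CYP27A1 led at 54.2 ± 25.3, followed by CH25H at 12.7 ± 6.46, CYP7A1 at 6.51 ± 4.18 and CYP7B1 at 5.92 ± 2.66 rescaled TPM.

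The bile acid and xenobiotic receptors are best known from liver, and all 3 had means under 6 rescaled TPM. NR1H4, the bile acid receptor gene FXR, was at 0.201, 2.10, 0.681, 1.71, 2.03 and 0.339 rescaled TPM and at 0.163 TPM on average as deposited. On the rescaled scale NR1H4 was lowest in replicates 1 and 6 and highest in replicates 2, 5 and 4. As deposited it passed 0.1 TPM in only 2 libraries, replicates 2 and 3. It was then lowest in replicates 1 and 4, at 0.0502 and 0.0571 TPM, so its order depends on the scale and on values under the detection threshold. ABCB11, the bile salt export pump gene and an FXR target, was at 0.0748, 1.48, 0.558, 1.14, 1.87 and 0.104 rescaled TPM, again with replicates 1 and 6 lowest. It too passed 0.1 TPM as deposited in only 2 libraries. ALB, the albumin gene of hepatocytes, was at 85.7, 794, 326, 772, 1091 and 47.6 rescaled TPM. The summed level of the 7 hepatocyte markers was 323, 1207, 560, 1318, 1616 and 203 rescaled TPM, and replicates 1 and 6 were the 2 lowest for 4 of the 7. They were also the 2 lowest for 2 of 5 vitamin D supply genes, 2 of 6 thyroid hormone targets, 2 of 16 retinoid supply genes and 0 of 15 coactivator genes. The share over all named nuclear genes was not computed, so the count does not set hepatocyte genes apart. The other marker of highest mean, APOA1, was at 136 to 254 rescaled TPM without that order, and SERPINA1, which hepatocytes make in quantity, was listed at 0 in 5 libraries and at 0.358 rescaled TPM in replicate 5. The part of hepatocyte transcripts in the NR1H4 values was not tested.

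**Figure D2:**
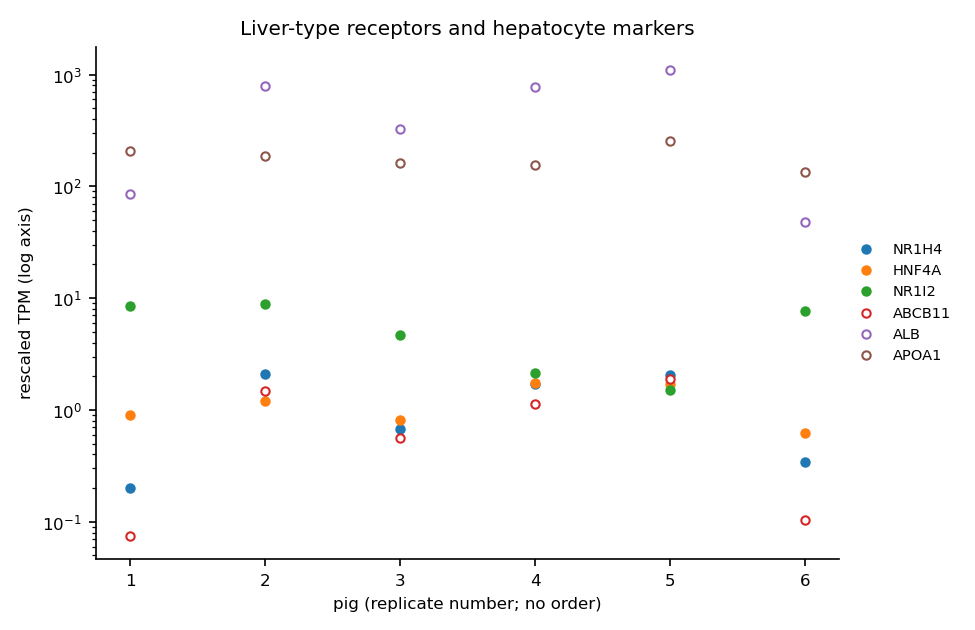
Rescaled TPM (log axis) of 3 receptors known from liver (filled circles) and of ABCB11, ALB and APOA1 (open circles) in each of the 6 pigs. NR1H4, ABCB11 and ALB are lowest in replicates 1 and 6, whereas NR1I2 is lowest in replicates 4 and 5. NR1H4 and ABCB11 passed 0.1 TPM as deposited in only 2 libraries each.

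The xenobiotic receptor NR1I2 (PXR) did not share that order, at 8.49, 8.90, 4.67, 2.13, 1.503 and 7.71 rescaled TPM. NR1I3 (CAR) was at 0.178 to 0.964 rescaled TPM, lowest in replicate 4 and highest in replicate 5. Of 5 target genes of FXR, PXR and CAR found, none was above 0.1 TPM in all 6 libraries. SLC51B, a bile acid transporter subunit gene, was at 7.07 ± 3.95, SLC51A, the other subunit, at 1.08 ± 0.566, and NR0B2, a corepressor gene, at 0.847 ± 0.310 rescaled TPM (SD, n = 6), while FGF19, the hormone gene that FXR induces in intestine, was listed at 0 in all 6 libraries.

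Orphan receptors that hold a bound lipid were low, apart from RORA. RORA, which binds sterols and acts in the circadian clock and in lipid metabolism, was at 61.3, 61.2, 72.9, 57.2, 41.1 and 60.4 rescaled TPM, with a mean of 59.0 ± 10.3 (SD, n = 6). The brain paralogue RORB was at 0.237 to 1.63. RORA exceeded RORB by 5.19 ± 0.38 on the log2 scale (SD, n = 6). NR5A2, a regulator of bile acid and steroid genes, was at 4.35 ± 1.39 rescaled TPM (SD, n = 6). Its paralogue NR5A1, the master regulator of steroid-making glands, was listed at 0 in replicates 3 to 6, at 0.213 rescaled TPM in replicate 1 and at 0.0375 in replicate 2. Of the 4 steroidogenic markers found, STAR was at 4.67 ± 0.746 and the next, CYP11A1, at 0.267 ± 0.440 rescaled TPM (SD, n = 6), and their sum was 4.45 to 5.58. HNF4A, a regulator of hepatocyte and gut identity, was at 0.902, 1.19, 0.813, 1.76, 1.72 and 0.621 rescaled TPM and HNF4G at 0.270 to 0.622. The median over the 6 receptors of the class was 0.929 rescaled TPM, and the class held 5.30% of the summed level, nearly all of it in RORA.

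The orphan receptors without an established ligand were the largest class, with 12 members, a median of 20.3 rescaled TPM and 28.1% of the summed level. The NR4A receptors, immediate early genes whose activity is set by how much is made, varied most. NR4A1 was at 123, 217, 39.2, 9.85, 14.7 and 105 rescaled TPM, NR4A3 at 38.6, 103, 9.33, 5.73, 10.3 and 17.1, and NR4A2 at 15.4, 35.4, 11.8, 2.85, 2.96 and 19.9. Replicate 2 was highest for all 3 and replicate 4 lowest for all 3. The highest library exceeded the lowest 22.0 times for NR4A1, 17.9 times for NR4A3 and 12.4 times for NR4A2. Without replicate 2 the mean of NR4A3 fell from 30.7 to 16.2 rescaled TPM. NR4A1 was higher than both paralogues in each library, and made up 62.5% ± 8.59 of the sum (SD, n = 6), while NR4A3 exceeded NR4A2 in 4 of 6.

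Other immediate early genes did not all follow the same order of libraries. Of 10 found, 8 were above 0.1 TPM in all 6 libraries. Among the 10, replicate 2 was highest for 5, replicate 5 for 3 and replicate 1 for 2. Replicate 2 was also highest for 7 of 15 coactivator genes and for 0 of 10 adipocyte markers. The share over all named nuclear genes was not computed. JUN was at 601, 644, 359, 318, 280 and 368 rescaled TPM, FOS at 254, 298, 193, 149, 359 and 254, EGR1 at 406, 318, 171, 29.3, 41.6 and 292, and MYC at 147, 201, 114, 40.0, 40.2 and 174. EGR1 and MYC were low in replicates 4 and 5 in the manner of NR4A1, whereas FOS was highest in replicate 5.

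**Figure D3:**
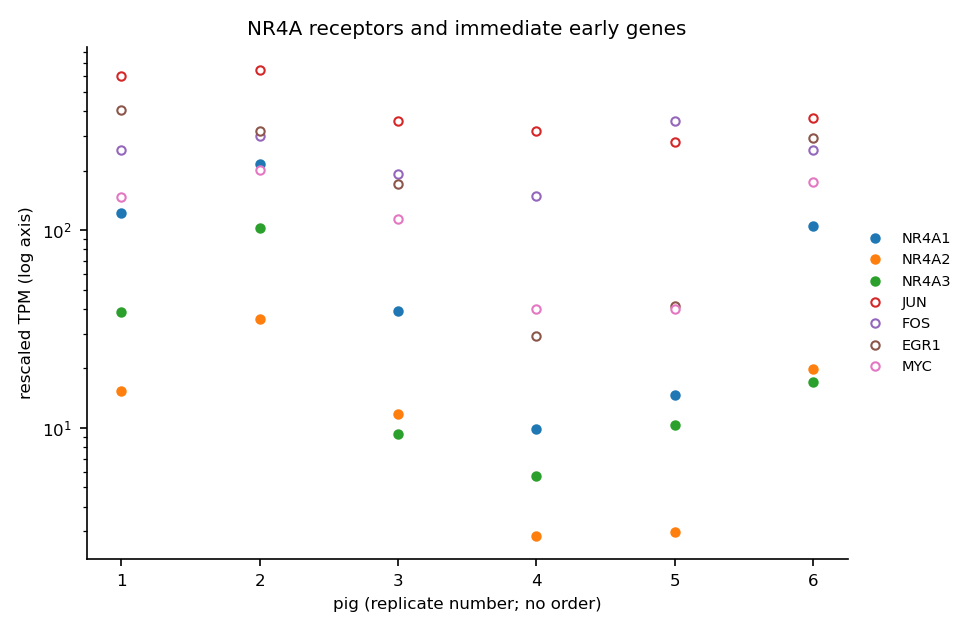
Rescaled TPM (log axis) of the 3 NR4A receptor genes (filled circles) and of the 4 immediate early genes of highest mean (open circles) in each of the 6 pigs. All 3 NR4A genes are highest in replicate 2 and lowest in replicate 4, at 217 and 9.85 for NR4A1.

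The COUP transcription factors were led by NR2F2, which marks venous endothelium and stromal cells and restrains adipocyte formation. NR2F2 was at 91.8, 138, 82.7, 23.1, 23.8 and 121 rescaled TPM, NR2F1 at 17.8, 30.3, 16.3, 8.03, 5.18 and 18.7, and NR2F6 at 34.3, 42.6, 36.9, 31.7, 40.2 and 30.2. NR2F2 exceeded NR2F1 in each library, whereas its order with NR2F6 turned: NR2F2 was higher in replicates 1, 2, 3 and 6 and NR2F6 in replicates 4 and 5. Without those 2 libraries NR2F2 exceeded NR2F6 by 1.54 ± 0.35 on the log2 scale (SD, n = 4). The share of NR2F2 in the sum of the 3 genes went from 71.2% in replicate 6 to 34.4% in replicate 5. The summed level of the 5 endothelial markers, led by PECAM1 at 714 ± 169 and CDH5 at 140 ± 64.03, was 1072 to 1337 rescaled TPM in the 4 other libraries, 609 in replicate 4 and 736 in replicate 5, and all 5 were below the other 4 there. Of the 7 stromal markers, led by COL3A1 at 8026 ± 3333 and DCN at 6179 ± 1869, 4 were below there, with sums of 9586 in replicate 4, 16808 in replicate 5 and 14812 to 28276 elsewhere. Of named nuclear genes with a mean of at least 1 rescaled TPM, 50.1% were below in both replicates 4 and 5. The part of endothelial and stromal cells in the NR2F2 values was not tested.

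The estrogen-related receptors, regulators of mitochondrial genes, consisted almost entirely of ESRRA. ESRRA was at 8.41, 10.9, 6.88, 21.6, 23.5 and 9.62 rescaled TPM, so replicates 4 and 5 lay above the other 4 by 2.52 times on average. In deposited TPM these same 2 libraries were the lowest, at 0.722 and 1.11 against 1.80 to 2.62, so the direction depends on the scale. ESRRA made up 91.5% ± 4.69 of the 3 genes' sum (SD, n = 6). ESRRG was at 0.266 to 1.90 and ESRRB at 0.0762 to 0.252 rescaled TPM. Of the testicular receptors, which repress by binding the repeats used by RXR partners, NR2C1 was at 38.7 ± 12.8 and NR2C2 at 24.5 ± 9.23 rescaled TPM, with NR2C1 higher in all 6 libraries by 0.67 ± 0.28 on the log2 scale (SD, n = 6). NR6A1, a germ cell receptor, was at 2.11 to 14.3 rescaled TPM.

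Receptors of 1 subfamily were then compared within each library, where the order of 2 genes is not affected by the total to which the library is scaled. The size of the log2 ratio does depend on it, because 1 was added to each rescaled value, and the ratio understates the difference for low genes. Of 25 pairs, 22 had at least 1 gene above 0.1 TPM as deposited in every library and were tested. The same gene was higher in all 6 libraries for 19 of the 22 (86.4%). An exact two-sided permutation test over the 6 pigs, flipping the sign of the log2 ratio, gave each of these 19 a p of 0.03125, the smallest it can give, and 0.0362 after Benjamini-Hochberg adjustment over the 22 pairs. The pairs that failed were NR1H2 with NR1H3 (mean log2 difference 0.04, exact permutation p = 0.781, adjusted p = 0.781), NR2F2 with NR2F6 (0.83, exact permutation p = 0.156, adjusted p = 0.164) and NR4A3 with NR4A2 (0.76, exact permutation p = 0.125, adjusted p = 0.138). The order was the same in all 4 remaining libraries for 20 pairs when replicates 4 and 5 were left out, the added pair being NR2F2 with NR2F6. ESR2 was listed at 0 in all libraries and NR5A1 in 4, and ESRRB reached at most 0.0608 TPM as deposited. None of these genes passed 0.1 TPM in any library. The order of their pairs with ESR1, NR5A2 and ESRRA was therefore set by the requirement that 1 gene be detected. The p-values of these pairs say nothing about the order. No fold is given for the pairs with ESR2 and NR5A1. Of the 20 pairs without ESR2 or NR5A1, 17 had the same order in all 6 libraries. These 17 still include ESRRA with ESRRB. They also include RORA with RORB and ESRRA with ESRRG. RORB was under 0.1 TPM as deposited in replicates 4, 5 and 6, and ESRRG in replicates 3, 4 and 5. The order of these pairs in those libraries was set by the same requirement, so their p-values say little about it. For NR4A1 with NR4A2 this held in replicate 4 only.

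**Figure D4:**
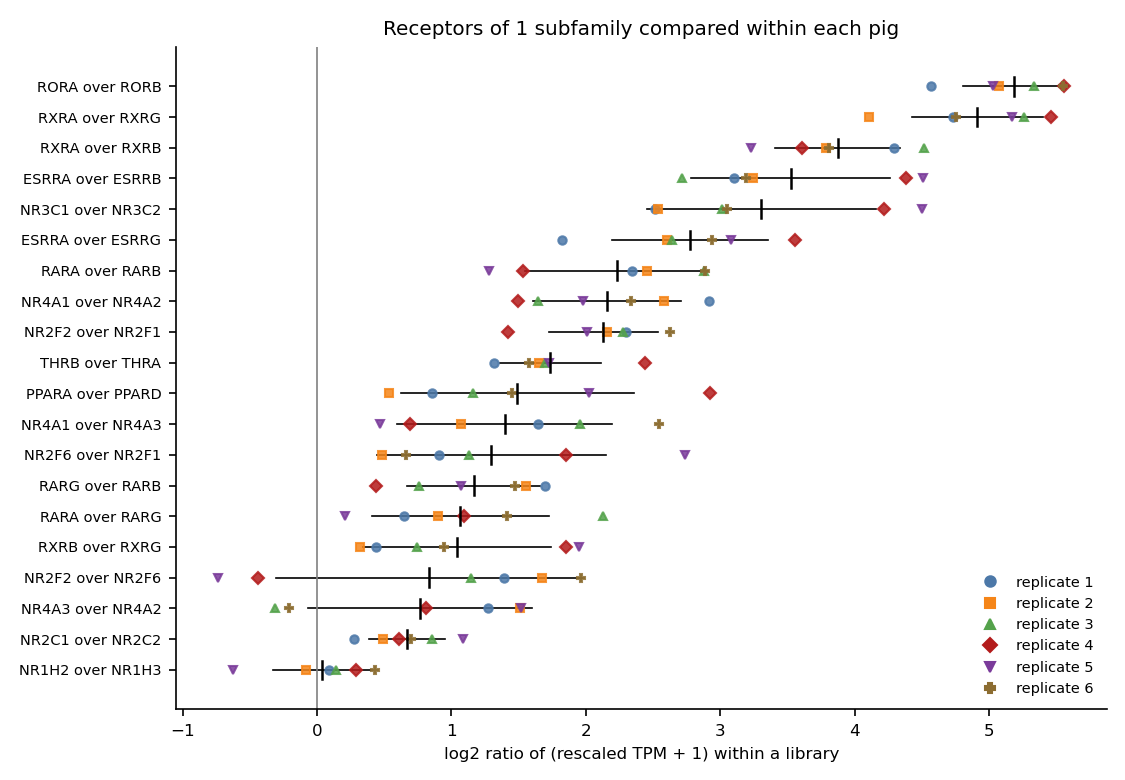
Log2 ratio of rescaled TPM, with 1 added to each value, between 2 receptors of a subfamily in each library (symbols), with the mean (vertical tick) and SD over 6 pigs (horizontal line). For 3 of the 20 pairs drawn the symbols fall on both sides of 0, and RORA over RORB lies farthest right on this scale, at a mean of 5.19. The order of ESRRA over ESRRB was set by the detection requirement, as was that of RORA over RORB and ESRRA over ESRRG in some libraries.

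The size of the ratios was less stable than their direction. The SD of the log2 ratio over the 6 pigs had a median of 0.57 over the 22 pairs. The share of a gene in the sum of its pair carries no added 1 and does not depend on the scale. The share of NR3C1 in the sum with NR3C2 was 85.5% to 89.7% in replicates 1, 2, 3 and 6, 95.5% in replicate 4 and 96.5% in replicate 5. That of PPARA in the sum with PPARD was 59.4% to 73.5% in the same 4 libraries, 89.4% in replicate 4 and 81.1% in replicate 5. Replicates 4 and 5 thus lay above the range of the others in both shares. The share of RXRA among the RXR genes, by contrast, was 89.2% to 94.2% in the 4 libraries, and replicates 4 and 5 lay within that range at 91.4% and 89.3%.

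The spread between pigs was compared with that of other genes. The median CV was 0.411 over the 33 receptors with a mean of at least 1 rescaled TPM and 0.327 over the 12130 named nuclear genes that passed the same filter. Among replicates 1, 2, 3 and 6 alone, it was 0.212 over the 30 receptors above the filter and 0.190 over the background. The median CV of both sets was thus lower without replicates 4 and 5. The lowest CV values were those of NR3C1 (0.0784), NR2F6 (0.135) and RORA (0.175), and the highest those of NR4A3 (1.22), VDR (0.973) and NR4A1 (0.944). The low end depends on the scale: after median-centring the CV was 0.197 for NR3C1, 0.282 for NR2F6 and 0.185 for RORA, and it was lowest for NR1H2 (0.152) and RXRA (0.154). NR4A3 (1.11), NR4A1 (0.872) and VDR (0.839) had the highest values there too. Of the 38 receptors above 0, 3 had 1 library far from the other 5 in rescaled TPM, against 7.89% of named nuclear genes.

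In rescaled TPM, replicates 4 and 5 were both below the other 4 for 21 of the 39 receptors, against 43.8% of named nuclear genes, and both above for 2, ESRRA and HNF4A, against 9.16%. HNF4A was under the 0.1 TPM used for detection in replicates 4 and 5, at 0.0587 and 0.0815 TPM as deposited. Over genes with a mean of at least 1 rescaled TPM, 19 of 33 receptors were below and 2 above, against 50.1% and 10.4% of the background. The median difference in mean log2(rescaled TPM + 1), replicates 4 and 5 minus the other 4, was -0.87 over these receptors and -0.49 over the named nuclear genes. The difference was most negative for NR4A1 (-2.99), NR4A2 (-2.36), RARA (-2.13) and NR2F2 (-2.13), and highest for ESRRA (1.26). These counts depend on the scale. In deposited TPM, 35 receptors were below and none above (87.2% and 0.229% of named nuclear genes). After centring each library on the median named nuclear gene, 14 receptors were below and 6 above (22.5% and 26.7%), and the 6 were NR3C1, NR2F6, ESRRA, RXRB, NR1H4 and HNF4A. Like HNF4A, NR1H4 was under 0.1 TPM as deposited in replicates 4 and 5, at 0.0571 and 0.0962. On the median-centred scale the median of all named nuclear genes moved from -0.49 to 0.08, and that of the receptors from -0.87 to -0.32. ESRRA and HNF4A were above on the rescaled and the median-centred scale and below in deposited TPM. The 14 receptors (35.9%) below after median-centring, against 22.5% of named nuclear genes, were below on all 3 scales. This was fixed in advance, because centring raised replicates 4 and 5 against the others and the deposited scale lowers them. The rescaled and deposited scales therefore add nothing to that count.

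**Figure D5:**
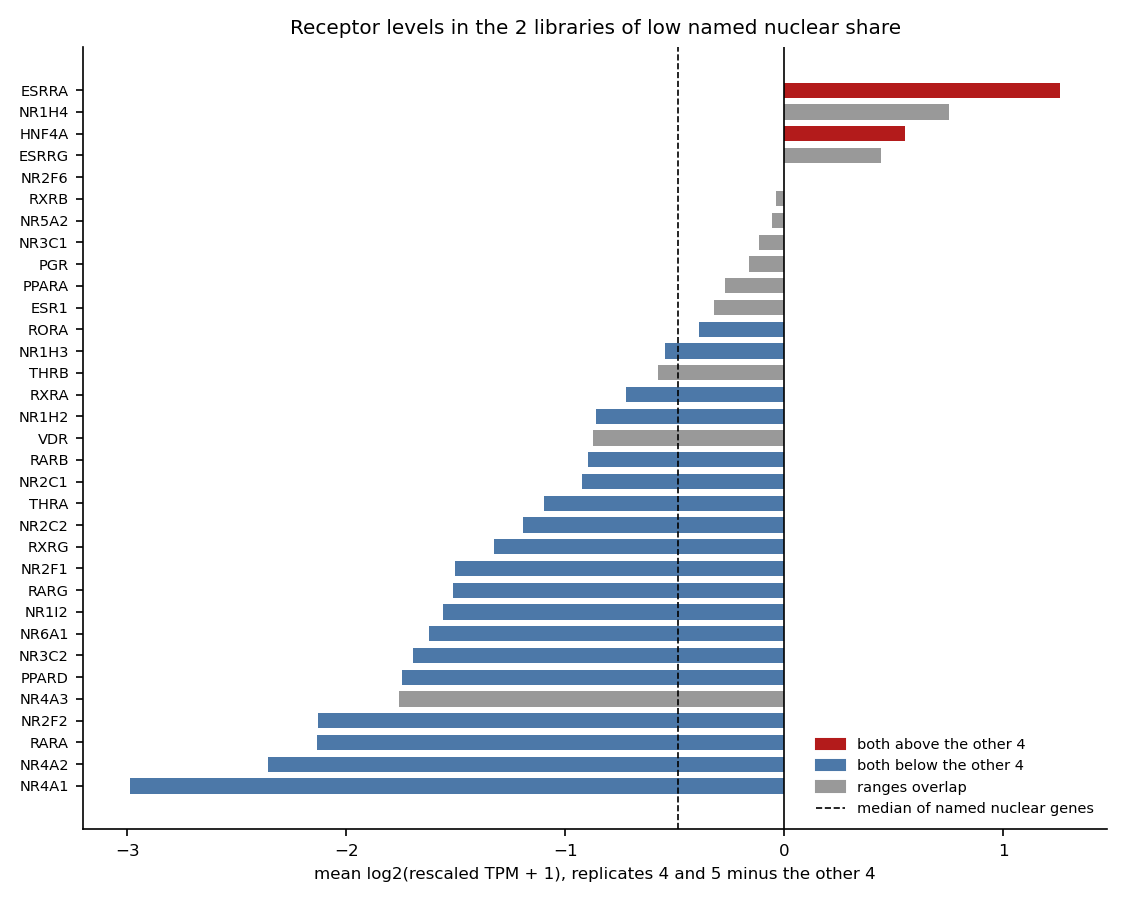
Difference in mean log2(rescaled TPM + 1) between replicates 4 and 5 and the other 4 libraries for the 33 receptors with a mean of at least 1 rescaled TPM, coloured by whether the 2 sets of libraries overlap. The dashed line is the median of named nuclear genes, -0.49, and NR4A1 lies lowest at -2.99.

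The 14 receptors below on all 3 scales were NR4A1, NR2F2, RARA, PPARD, THRA, NR2C2, NR3C2, NR2F1, RARG, NR4A2, NR6A1, RXRG, NR1I2 and RARB. Of these, NR1I2 was under 0.1 TPM as deposited in replicates 4 and 5, at 0.0712 and 0.0711. NR4A2 and NR6A1 were under it in replicate 4, at 0.0951 and 0.0705. Transcript length and GC content showed little relation to the difference among the receptors. Across the 31 receptors with a value, Spearman's rho was -0.10 with length and 0.02 with GC content, and across 11133 named nuclear genes it was -0.29 and -0.15. These are descriptions across genes, which are not independent and share the 6 libraries.

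Cofactors, through which receptors act on chromatin, were read on the rescaled scale, where 43.8% of named nuclear genes were below in both replicates 4 and 5. Of named nuclear genes with a mean of at least 1 rescaled TPM, the share was 50.1%. Of 15 coactivator genes found, 14 were above 0.1 TPM in all 6 libraries and 11 were below in both replicates 4 and 5, with 1, NCOA4, above. NCOA4 was at 260 ± 75.1, KAT2B at 258 ± 40.5, EP300 at 85.2 ± 53.0 and MED1 at 84.5 ± 27.6 rescaled TPM (SD, n = 6). EP300, a histone acetyltransferase gene, was at 94.2 to 139 in the other 4 libraries and at 23.4 and 15.8 in replicates 4 and 5. PPARGC1A, the inducible coactivator gene of mitochondrial genes and named after its values were seen, was at 0.259 to 1.04 rescaled TPM. Of 11 corepressor genes found, 8 were above 0.1 TPM in all 6 libraries and 6 were below in both replicates 4 and 5. TBL1XR1 was at 129 ± 22.0, NRIP1 at 126 ± 29.7 and GPS2 at 123 ± 65.6 rescaled TPM (SD, n = 6). GPS2, which encodes a subunit of the corepressor complex, was at 160 to 169 in the other 4 libraries, at 40.5 in replicate 4 and at 36.0 in replicate 5.

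Markers of other cells were read as well. Of 7 macrophage markers, led by MRC1 at 154 ± 40.9 and CD163 at 141 ± 49.5, 4 were below in replicates 4 and 5, and the sum of the 7 was 317 to 728 rescaled TPM. Of named nuclear genes with a mean of at least 1 rescaled TPM, 50.1% were below there. The 5 mural markers, led by TAGLN at 279 ± 37.8 and ACTA2 at 206 ± 137, summed to 550 to 1095. The lymphoid list, led by CD2 at 8.71 ± 1.67 and CD79A at 7.16 ± 4.98, summed to 12.5 to 30.5, the epithelial list, led by KRT8 at 5.80 ± 1.32 and CDH1 at 1.75 ± 0.776, to 6.14 to 11.8, and the skeletal muscle list, led by ACTA1 at 1.84 ± 2.27 and CKM at 1.38 ± 0.876, to 0.887 to 10.98 rescaled TPM. The part of cell makeup in the receptor values was not tested.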

How the data were processed

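Stranded RNA-seq libraries were made by the authors from total RNA after removal of ribosomal RNA. The deposited values are TPM per Ensembl gene ID, which the authors made with kallisto 0.43.0 per the submitters' processing notes, which also name Sscrofa11.1 for pig. TPM keep no counts, so depth is unknown and precision comes only from the spread between the 6 libraries, which the labels do not tie to separate animals in so many words. P-values measure only that spread.

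Symbols were matched by ID from a name table, which named 14857 IDs, of which 14844 were nuclear. TPM of each library were rescaled to 1000000 over these genes. Means, SD, CV (mean of at least 1 rescaled TPM) and log2 ratios with 1 added to each value were computed with Python 3.11.15, numpy 2.4.6, pandas 2.3.3 and scipy 1.17.1. The sign-flip test was exact and two-sided. The scripts were tested on simulated data. P box letters, lengths and GC content came from the Sscrofa11.1 genome and RefSeq annotation, read with pysam 0.24.0.

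The members, gene lists, pairs and tests were chosen with earlier results of these data known. All members were named, and from each pathway list the 4 genes of highest mean and any gene at 0 in every library, and from each marker list the 2 genes of highest mean. Exceptions are stated as such, and 3 genes that the rule names are not reported here. The rat table was not used. Alternatives were the deposited scale, median-centring, rescaling without ribosomal protein genes, other thresholds, a pseudocount of 0.1, the class mean, and leaving out each library. Leaving out replicates 4 and 5 together, and the counts of receptors outside the range without ribosomal protein genes, were added after seeing the data.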

Additional observations from a re-analysis of the deposited data

Results flagged for a closer look

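Among 76 sets of 6 values (38 receptors on 2 scales), 5 had 1 library far from the other 5 by Dixon's criterion at the 95% level, and chance marks about 1 in 20 such sets. NR1H3, the liver X receptor alpha gene, was lowest in replicate 4, at 35.3 rescaled TPM against 62.6 to 71.3 in the others. After median-centring it was at 47.2 against 55.8 to 86.6. NR4A3 was highest in replicate 2, at 103 rescaled TPM against 5.73 to 38.6. NR1H4 was highest in replicate 2 in deposited TPM, at 0.506 against 0.0502 to 0.178, and on the rescaled scale that library was at 2.10, beside 2.03 in replicate 5. NR5A1 was highest in replicate 1, at 0.213 rescaled TPM and 0.0533 deposited TPM, with values of 0 to 0.0375 rescaled TPM and 0 to 0.00903 deposited TPM in the others, so every deposited value was under the 0.1 TPM used for detection. The causes were not tested.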

How the results depend on the processing

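The levels of receptors rest on 1 group of 6 libraries without read counts, and replicates 4 and 5 differ from the others on every scale tried. No paired analysis was possible because the pig samples form 1 group and the rat table, which shares replicate numbers 1 and 2, was not used. Receptors above the detection threshold in all libraries numbered 8 at over 1 TPM and 36 at over 0.1 rescaled TPM, and 25 to 28 without 1 library. The median CV was 0.712 in deposited TPM, 0.490 without a filter and 0.376 for means of at least 5 rescaled TPM, and it ranged from 0.342 (without replicate 4) to 0.437 (without replicate 2) when 1 library was left out. Without replicates 4 and 5 together it was 0.212. In deposited TPM the median receptor level was 3.37, and the class medians were 2.14 (steroid hormone), 4.66 (thyroid hormone, retinoic acid and vitamin D), 2.50 (RXR), 6.51 (fatty acid, oxysterol, bile acid and xenobiotic), 0.163 (orphan with a bound lipid) and 4.44 (orphan). This is not a change of unit alone. Rescaling multiplied replicates 4 and 5 by 29.9 and 21.1 and the others by 3.80 to 4.15, so replicates 4 and 5 weigh less in deposited means. Taken as the mean over members, 3 classes moved, to 35.0 (steroid hormone), 78.8 (RXR) and 10.9 (orphan with a bound lipid) rescaled TPM, each with 1 gene far above the rest. Receptors with both replicates 4 and 5 above the other 4 numbered 0 in deposited TPM and 6 after median-centring, and those below numbered 35 in deposited TPM. The cause was not tested. The number of pairs of constant order was 19 under a pseudocount of 0.1, in deposited TPM and without any 1 library, and 22 of 25 with no filter on pairs. With 5 libraries the exact test cannot go below p = 0.0625 (exact permutation), so no pair could pass there. The log2 ratio of NR1H2 to NR1H3 changed sign without replicate 4 (-0.01) and without replicate 6 (-0.038), and without 1 library it lay between -0.038 and 0.17. Of 132 log2 ratios with 1 library left out, the other 130 kept their sign. All 228 means with 1 library left out moved by less than 1 SD. Leaving out 1 of 6 values cannot move a mean by that much, so this check could not fail and says nothing about stability.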
